A study of Gallus gallus with 2 samples.

Results

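The genes described here are 10 genes of the vascular endothelial growth factor (VEGF) and angiopoietin axis in the wings of a chick embryo: KDR, FLT1, FLT4, VEGFA, TEK, TIE1, ANGPT1, ANGPT2, SOX17 and SOX18. They were chosen by name, as core signals and transcription factors of the endothelium, out of 24356 rows in the expression table. The listed symbol found a row for 9 of them. The remaining gene, ANGPT2, has no row under that symbol, and was taken from the row named angiopoietin-2 (ENSGALG00000036189), a name that RefSeq gives as a synonym of chicken ANGPT2. All 10 were above 0 in both wings and passed the filter on low values, so all 10 are compared below.

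Endothelial cells line blood and lymphatic vessels, and vessel growth in the limb bud depends on VEGF. VEGFA is secreted largely by cells around the vessels and acts on the receptor tyrosine kinases KDR and FLT1, while FLT4 is the receptor for VEGFC and VEGFD and is best known from lymphatic vessels. The angiopoietins act later, on the stability of vessels, through the receptor TEK: ANGPT1, from perivascular and mesenchymal cells, activates it, and ANGPT2, from activated endothelium and some mesenchyme, often opposes ANGPT1. SOX17 and SOX18 belong to the SOXF family of transcription factors, which take part in arterial and lymphatic differentiation.

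Both libraries came from 1 Gallus gallus embryo chosen because it overexpressed SOCS2, a suppressor of cytokine signalling. The right wing was injected with RCAS-GFP-SOCS2, a replicating avian retrovirus that carries green fluorescent protein and SOCS2, and the left wing was the uninjected control. RNA was taken 5 days after infection at stage HH 34, when digits form. The tissue is labelled forelimb bud, no sorting of cells is described, and neither the embryo's strain nor its sex is given in the sources used here.

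Each wing gave 1 library, so there is no measure of the spread between wings of equal treatment, and no p-value was computed. Injection cannot be told apart from the right side of the body. Without a wing given the virus but not SOCS2, SOCS2 cannot be told apart from infection, green fluorescent protein or the injection itself. Levels are in TPM, a relative transcript abundance that is corrected for transcript length and so allows levels of different genes to be set side by side. TPM keeps no depth, so no counting interval is given. In bulk tissue, fewer cells of a type and less RNA per cell cannot be told apart.

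The ratio used throughout is log2(TPM + 0.1) in the injected wing minus log2(TPM + 0.1) in the uninjected wing, which understates the difference of genes with low values. A gene is called higher or lower in the injected wing when it differs by more than 1.5-fold, a rule of size and not a test. SOCS2 was at 54.2 TPM uninjected and 254 TPM injected, 4.69-fold higher. Of 13946 genes compared, 311 were higher (2.23%) and 668 lower (4.79%), so 7.02% were called in either direction. Higher genes made up 31.8% of these calls, and 38.1% to 40.0% under 3 other scalings; after subtraction of the abundance trend, 435 were higher and 524 lower, a share of 45.4%. In the class with a mean of 1 to 5 TPM, 7.77% were higher and 15.5% lower. The median ratio of all these genes was −0.04, and the middle of the distribution, from the 25th to the 75th percentile, ran from −0.18 to 0.08.

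Endothelial markers other than the 10 genes were read for the presence of endothelium. Of 28 such entries, 18 had a row, and all 18 were above 0 in both wings. These values cannot show which cells express the 10 genes. The 3 most abundant were CDH5, CD34 and PECAM1, and the least abundant, STAB2, was at 1.96 TPM in both wings. CDH5, the cadherin of endothelial junctions, was at 144 TPM uninjected and 141 TPM injected. The adhesion molecule PECAM1 was at 56.3 and 50.3 TPM, and the surface sialomucin CD34, which mesenchymal cells also carry, at 102 and 109 TPM. Some mesenchymal transcripts were far more abundant in the same libraries, where the collagen gene COL1A2 reached 5011 TPM uninjected and 4157 TPM injected. Others were not, and the mesenchymal factors TWIST1 (112 and 130 TPM) and TBX5 (113 and 137 TPM) stood below CDH5.

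None of the 10 genes differed between the wings by more than 1.5-fold, against 7.02% of all genes compared. With so few genes, a count of 0 is close to that background share. In the class of 15 to 50 TPM, which holds KDR, FLT4, TEK, TIE1, ANGPT1 and SOX18, the share was lower, at 2.56%. The ratios of the 10 ran from −0.03 for ANGPT1 to 0.33 for ANGPT2. Their median was 0.04, and 7 of the 10 lay within 0.1 of 0. Beyond 2-fold the count was likewise 0, against 1.99% of all genes. At a looser limit of 0.32 on the log2 scale it was 1, ANGPT2, against 19.5% of all genes in either direction. In the higher direction the share was 6.63%. Both ANGPT2 (0.329) and SOX17 (0.317) lay close to that limit of 0.322, and SOX17 stood at 0.337 with 0.01 TPM added. A group of 7, the receptor genes KDR, FLT1, FLT4, TEK and TIE1 with ANGPT1 and SOX18, differed least, and VEGFA, SOX17 and ANGPT2 stood higher in the injected wing. All 10 ratios lay above the all-gene median of −0.04. The sign itself depended on the scaling for 4 of them: KDR, FLT1, FLT4 and ANGPT1 were slightly below 0 as deposited and slightly above 0 under 3 other scalings and with the trend over abundance removed.

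The levels of the 10 genes spanned 76.1-fold in the uninjected wing and 75.6-fold in the injected wing. ANGPT2 was the most abundant and SOX17 the least, and the order of the 10 was the same in both wings, with 0 places exchanged. In descending order it was ANGPT2, TIE1, SOX18, ANGPT1, TEK, KDR, FLT4, VEGFA, FLT1 and SOX17. Of the 9 neighbouring pairs in that order, 6 were less than 1.5-fold apart in the uninjected wing. ANGPT1, TEK, KDR and FLT4 were especially close, between 16.6 and 21.2 TPM in that wing. The wide steps were from ANGPT2 to TIE1 (2.58-fold), from VEGFA to FLT1 (1.70-fold) and from FLT1 to SOX17 (6.27-fold).

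**Figure D1:**
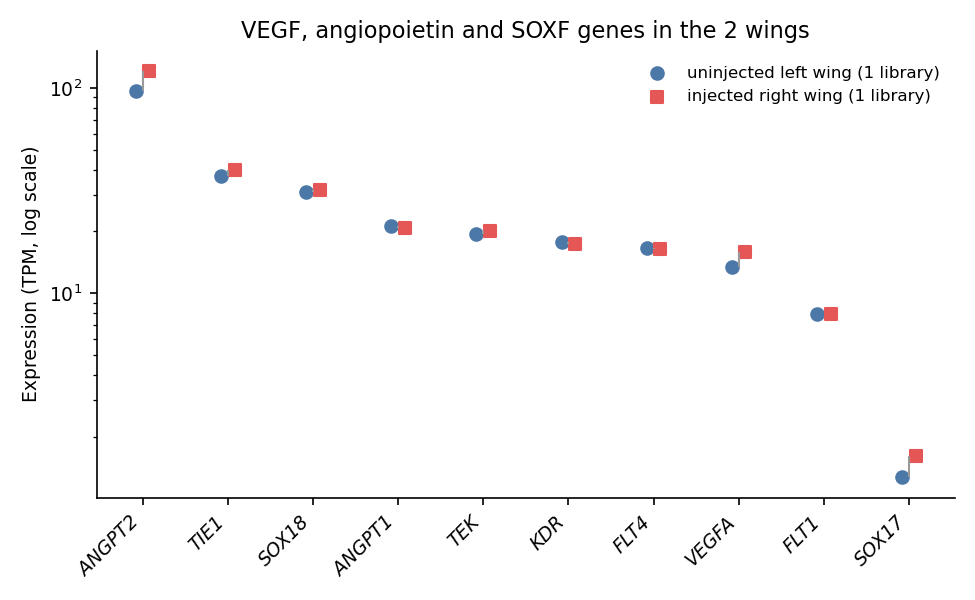
Expression of each of the 10 genes in TPM on a log scale, with a circle for the uninjected left wing and a square for the injected right wing, 1 library each. The order of the genes is the same in both wings, and the pairs that separate visibly are ANGPT2 (96.3 and 121 TPM), VEGFA (13.5 and 15.8 TPM) and SOX17 (1.27 and 1.60 TPM).

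The 3 VEGF receptor genes were close to equal in the 2 wings. KDR (ENSGALG00000013907), which encodes VEGFR2, the main signalling receptor for VEGFA in endothelium, was at 17.8 TPM uninjected and 17.5 TPM injected (log2 ratio −0.02). FLT1 (ENSGALG00000017091) encodes VEGFR1, which binds VEGFA tightly and signals weakly, so that it is regarded as a decoy. It was at 7.93 and 7.89 TPM (−0.01). FLT4 (ENSGALG00000005802), which encodes VEGFR3, was at 16.6 TPM uninjected and 16.5 TPM injected (−0.01). In all 3 the injected wing was the lower by a margin of under 0.03 on the log2 scale, and the same 3 stood at 0.03, 0.04 and 0.06 with the abundance trend removed. The co-receptors of these receptors, the neuropilins, were more abundant and a little higher in the injected wing. NRP1 was at 92.3 and 99.7 TPM (0.11) and NRP2 at 153 and 171 TPM (0.16). Neuropilins also serve as semaphorin receptors in nerve and mesenchyme, so these levels are not those of endothelium alone.

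The VEGF ligand genes had ratios on both sides of 0. VEGFA (ENSGALG00000010290) was at 13.5 TPM uninjected and 15.8 TPM injected, a ratio of 0.23, or 1.17-fold, above that of 89.5% of all genes compared. PGF, a ligand of FLT1, was at 4.71 and 4.88 TPM (0.05). The ligands of FLT4 had ratios below 0. VEGFC, the main growth factor of lymphatic endothelium, was at 10.3 TPM uninjected and 8.71 TPM injected (−0.24). VEGFD was at 20.0 and 14.6 TPM (−0.46), the widest difference among the ligands and still within 1.5-fold. VEGFD was also the most abundant VEGF ligand gene in the uninjected wing, and in the injected wing VEGFA stood above it. VEGFB had no row under its symbol and was not analysed here.

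The angiopoietin receptors differed little. TEK (ENSGALG00000001840), the receptor that angiopoietins bind, was at 19.3 TPM uninjected and 20.1 TPM injected (0.06). TIE1 (ENSGALG00000009957), a related receptor that pairs with TEK and modulates its signal, was at 37.4 and 40.0 TPM (0.10). Both were slightly higher in the injected wing. PTPRB, the vascular endothelial phosphatase that dephosphorylates TEK, was at 9.79 and 8.46 TPM (−0.21).

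Of the ligands, ANGPT1 (ENSGALG00000029983) was at 21.2 TPM uninjected and 20.7 TPM injected (−0.03). ANGPT2 was at 96.3 TPM uninjected and 121 TPM injected (0.33, 1.26-fold). This was the highest ratio of the 10 genes, above that of 93.5% of all genes compared. In the class of ANGPT2, 2972 genes whose mean lay from 50 to 150 TPM, the 95th percentile was 0.25, and 1.92% of that class passed 1.5-fold. ANGPT4, a further TEK ligand, was at 14.7 TPM uninjected and 11.7 TPM injected (−0.32), so the 3 angiopoietin genes had ratios on both sides of 0. SVEP1, a matrix protein that binds TIE1 in mammals, was at 19.5 and 14.6 TPM (−0.42), and the adaptor gene DOK2, which acts below TEK, at 1.56 and 1.43 TPM (−0.12). These 4 pathway genes outside the chosen 10 (ANGPT4, PTPRB, SVEP1 and DOK2) all had ratios below the all-gene median. None of them passed 1.5-fold, against 7.02% of all genes.

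The angiopoietin-like genes, looked up after the other values were seen, encode secreted proteins related to angiopoietins that do not bind TEK. ANGPTL1 was at 168 TPM uninjected and 215 TPM injected (0.36). ANGPTL2 was at 74.1 and 83.5 TPM (0.17). ANGPTL4, a regulator of lipoprotein lipase, was lower in the injected wing at 51.0 and 45.8 TPM (−0.16), as was ANGPTL5 at 2.80 and 2.18 TPM (−0.35). None of these 4 passed 1.5-fold, against 7.02% of all genes.

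SOX18 (ENSGALG00000034118), which induces PROX1 at the start of lymphatic differentiation in the mouse, was at 31.0 TPM uninjected and 31.7 TPM injected (0.03). SOX17 (ENSGALG00000032994), an arterial factor of endothelium, was at 1.27 and 1.60 TPM (0.32). SOX17 was the least abundant of the 10 and lies in the class of 1 to 5 TPM, in which 23.2% of 2431 genes passed 1.5-fold and ratios from the 5th to the 95th percentile ran from −1.01 to 0.73. With 1 TPM added in place of 0.1, its ratio was 0.20. The third SOXF gene, SOX7, had no row under its symbol and was not analysed here.

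**Figure D2:**
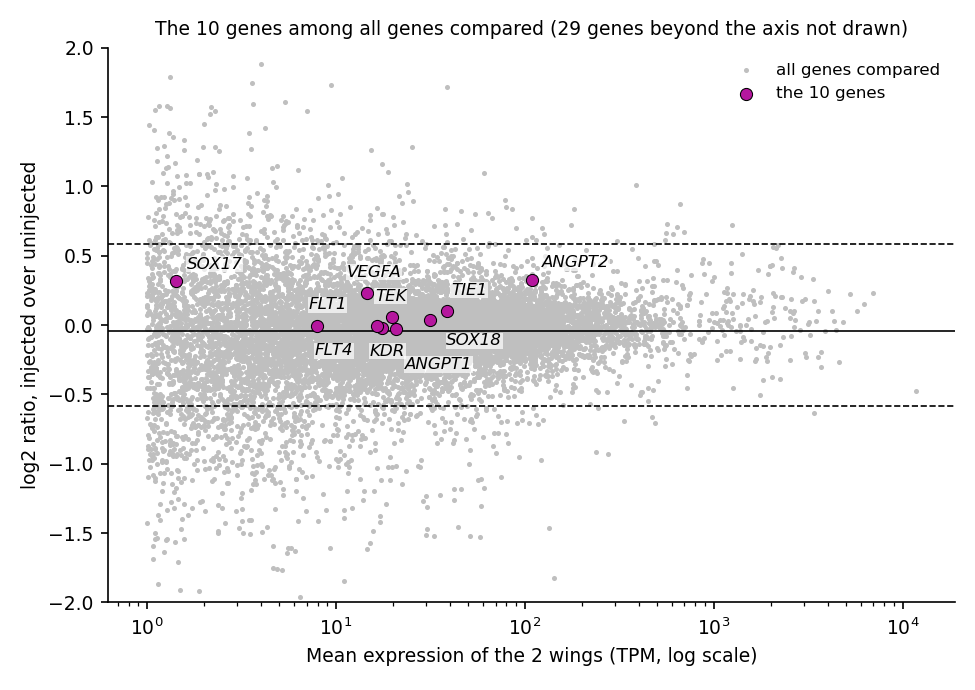
Log2 ratio of injected over uninjected against mean expression in TPM (log scale) for the genes compared (grey) and the 10 genes (labelled). Of the 13946 genes compared, 29 with a ratio beyond 2 in either direction, SOCS2 among them, are not drawn. The solid line is the all-gene median of −0.04 and the dashed lines mark 1.5-fold. The 10 genes lie between the dashed lines and above the solid line, with 7 of them close to it and SOX17, VEGFA and ANGPT2 apart.

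Set against all genes, 6 of the 10 ratios fell between the 25th and 75th percentiles. The other 4 (TIE1, VEGFA, SOX17 and ANGPT2) lay above the 75th, and TIE1 did so narrowly, above 77.0% of genes. With 2 libraries, the ratio between wings is the only pattern a gene can show, and most of these ratios were common ones. KDR shared its ratio to within 0.05 with 2911 other genes, FLT1, FLT4 and ANGPT1 with 2920 each, and TEK with 2391. The ratios of VEGFA, SOX17 and ANGPT2 had 819, 441 and 406 genes as near.

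Ratios between the 10 genes within a wing set their transcript levels in bulk tissue side by side. They show no balance of receptor and ligand proteins, and their differences between wings follow from the ratios above. KDR stood above FLT1 by 1.15 on the log2 scale in the uninjected wing and by 1.14 in the injected one. FLT4 was at 0.93 and 0.94 of KDR, and TEK at 0.52 and 0.50 of TIE1. These 3 receptor pairs kept their proportions to within 0.05 on the log2 scale. The pairs with a ligand shifted more. VEGFA was at 0.76 of KDR uninjected and 0.91 injected, a difference of 0.25 on the log2 scale. ANGPT2 exceeded ANGPT1 by 4.54-fold in the uninjected wing and by 5.82-fold in the injected wing, a difference of 0.36. SOX18 exceeded SOX17 by 22.8-fold and 18.7-fold, a difference of −0.28 that rests on the low level of SOX17. Relative to CDH5, the level of KDR was 12.3% in the uninjected and 12.4% in the injected wing, that of TEK 13.4% and 14.2%, and that of ANGPT2 66.8% and 85.8%.

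**Figure D3:**
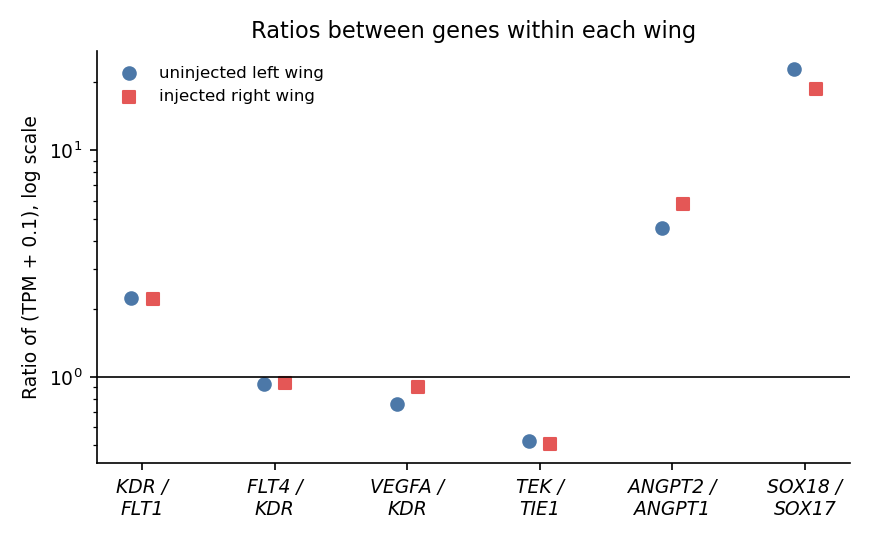
Ratio of (TPM + 0.1) between pairs of the genes within each wing, on a log scale, with a circle for the uninjected and a square for the injected wing, 1 library each. The receptor pairs KDR/FLT1, FLT4/KDR and TEK/TIE1 nearly coincide between wings, while ANGPT2/ANGPT1 goes from 4.54 to 5.82 and VEGFA/KDR from 0.76 to 0.91.

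Genes that relay the signal of VEGF receptors inside the cell were measured for 22 of 24 entries. None passed 1.5-fold, against 7.02% of all genes, with a median ratio of 0.06 and a range of −0.15 to 0.25. In the classes from 15 TPM up, where most of these genes lie, that share was at most 2.56%, so 0 calls say little. Nearly all act in many cell types. PLCG1, the phospholipase recruited by KDR, was at 149 TPM uninjected and 142 TPM injected (−0.07). The small GTPase genes CDC42 (663 TPM in both wings, 0.00) and RAC1 (450 and 511 TPM, 0.18) and the kinase gene AKT1 (157 and 163 TPM, 0.06) were the most abundant. NOS3, the endothelial nitric oxide synthase, had the lowest ratio of the list, at 7.89 and 7.08 TPM (−0.15), and SRC the highest, at 34.7 and 41.3 TPM (0.25).

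The remaining endothelial markers had a slightly lower median than the 10 genes. Of the 18 measured, 0 passed 1.5-fold, against 7.02% of all genes, with a median of −0.10 and a range of −0.47 to 0.21. Most of these markers lie in the classes from 15 TPM up, where at most 2.56% of genes were called. Above the all-gene median of −0.04 lay 8 of 18, and 10 of 10 of the chosen genes. Some genes of both groups lay close to that median, among them ANGPT1 and CDH5, both at −0.03 and just above it. Other markers lay further below it, down to −0.47. With 1 library a wing, a difference between the groups was not tested. The summed level of the 18 markers was 755 TPM uninjected and 721 TPM injected. The lowest ratio belonged to RASIP1, a regulator of vessel lumen formation, at 38.3 and 27.6 TPM (−0.47). Tip cell genes mark the leading cells of vessel sprouts. Those other than ANGPT2 gave 0 of 6 past 1.5-fold, against 7.02% of all genes, with a median of −0.05. Among them PDGFB, which recruits pericytes, was at 23.4 and 22.4 TPM (−0.06), and the netrin receptor gene UNC5B at 30.7 and 27.2 TPM (−0.17).

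Endothelial transcription factors had 1 call among 14 measured, a share close to the 7.02% of all genes, with a median of −0.08. GATA2, a factor of endothelium and of blood progenitors, was at 5.75 TPM uninjected and 2.62 TPM injected (−1.11), lower by more than 1.5-fold under each alternative in which it was compared. Its mean was 4.18 TPM, in the class of 1 to 5 TPM where 15.5% of genes were lower, and it was not compared at a minimum of 5 TPM. HHEX, an early endothelial and haematopoietic homeobox gene, was at 21.0 and 14.6 TPM (−0.52), within 1.5-fold. The most abundant factors were also within 1.5-fold, with ratios on both sides of 0. MEF2C was at 138 and 131 TPM (−0.08), KLF2, a factor induced by blood flow, at 112 and 126 TPM (0.17), and ELK3 at 104 and 96.0 TPM (−0.11).

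Among red blood cell markers, 4 of 8 measured were lower and 0 higher, against 4.79% of all genes lower, and the median was −0.49. At a minimum of 5 TPM the median was −0.28, since RHAG and ANK1, with means of 3.83 and 4.74 TPM, were then not compared; in their class 15.5% of genes were lower. Those lower were RHAG (−1.01), the anion exchanger gene SLC4A1 (−0.85), the globin gene HBZ (−0.70) and the ankyrin gene ANK1 (−0.62). ANK1 was within 1.5-fold under 3 other scalings (−0.58 to −0.57), with 1 TPM added (−0.52) and with the abundance trend removed (−0.54). The more abundant globin genes were within 1.5-fold, with HBBA at 1174 and 1183 TPM (0.01), HBA1 at 1301 and 1145 TPM (−0.18) and HBE1 at 356 and 276 TPM (−0.37); globin genes have near-identical copies, so their values are uncertain. The summed level of the list was 2991 TPM uninjected and 2723 TPM injected, and its part in the ratio of GATA2 was not tested.

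Genes of arteries and of veins and lymphatics were measured as separate lists. The arterial and Notch genes (12 compared) gave 0 calls, against 7.02% of all genes, and a median of 0.07. Most of them lie in the classes from 15 TPM up, where at most 2.56% of genes were called. The NOTCH1 ligand gene DLL4 was at 13.8 and 11.0 TPM (−0.33), and HEY2, a Notch target of arteries, at 5.40 and 7.25 TPM (0.42). The most abundant were the chemokine gene CXCL12 at 156 and 205 TPM (0.40), the connexin gene GJA5 at 91.6 and 97.1 TPM (0.08) and HEY1 at 80.8 and 79.6 TPM (−0.02).

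Venous and lymphatic genes had the highest median of the 19 lists, 0.38, with 6 of 7 above 0. None was called, against 7.02% of all genes. NR2F2, a nuclear receptor of venous identity that limb mesenchyme also expresses, was at 105 TPM uninjected and 155 TPM injected (0.56). It passed 1.5-fold under each of 3 other scalings, where it stood between 0.59 and 0.61. With the abundance trend removed (0.57) and with 1 or 0.01 TPM added (0.56 in each case) it stayed within 1.5-fold. LYVE1, a hyaluronan receptor of lymphatic endothelium and some macrophages, was at 7.15 and 10.3 TPM (0.52), NT5E at 7.49 and 10.8 TPM (0.52), and PROX1, the master regulator of lymphatic endothelium, at 4.54 and 5.93 TPM (0.38). In the class of 5 to 15 TPM the 95th percentile was 0.43, above the ratio of PROX1 and below those of LYVE1 and NT5E. RELN was at 15.8 and 17.4 TPM (0.14). A protease and a cofactor that activate VEGFC had ratios on both sides of 0. ADAMTS3 was at 112 and 97.6 TPM (−0.20), the one value of the list below 0, and CCBE1 at 4.64 and 5.09 TPM (0.13). In bulk tissue, these values cannot show which cells express the genes of this list, ADAMTS3, NT5E and RELN included. FLT4, the receptor of VEGFC, and SOX18 lay near 0, at −0.01 and 0.03. Genes of veins or lymphatics placed in other lists had ratios on both sides of 0. Among them were FOXC2 (−0.46), APLNR (−0.28) and MMRN1 (0.19), so the median depends on which genes the list holds. EPHB4 and PDPN had no row under their symbols and were not analysed here.

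**Figure D4:**
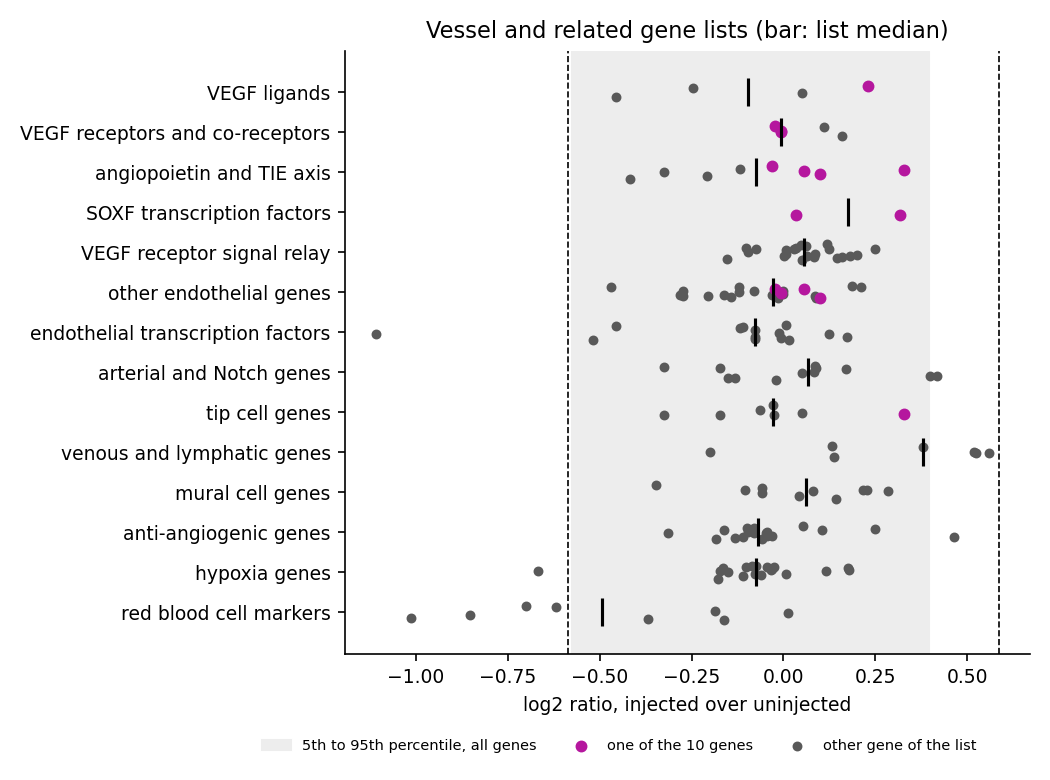
Log2 ratios of injected over uninjected for each gene of 14 lists, with the 10 genes in magenta, other genes in grey, a bar at each list's median (the 10 genes included), the 5th to 95th percentile of all genes shaded (−0.57 to 0.40) and dashed lines at 1.5-fold. Most list medians lie near 0, the venous and lymphatic list stands to the right (0.38) and the red blood cell list to the left (−0.49), and ANGPT2 is to the right of its list.

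Genes of cells and signals around the vessels gave 0 calls, against 7.02% of all genes. In the classes from 15 TPM up, where most of these genes lie, the share was 1.88% to 2.56%, so 0 calls say little. Mural cell genes, which mark pericytes and vascular smooth muscle, had 0 calls among 10 and a median of 0.06. DES, which skeletal muscle also expresses, was at 241 and 224 TPM (−0.10), the smooth muscle actin gene ACTA2 at 145 and 170 TPM (0.23) and the adhesion gene MCAM at 131 and 135 TPM (0.04). RGS5, a pericyte marker, was at 24.0 and 18.8 TPM (−0.35). The 18 anti-angiogenic genes had 0 calls and a median of −0.07. Their highest ratio was that of CNMD, chondromodulin, a cartilage protein that inhibits vessel growth, at 236 and 326 TPM (0.46). SERPINF1 was at 383 and 358 TPM (−0.10) and THBS2 at 266 and 249 TPM (−0.10).

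Hypoxia genes were included because low oxygen induces VEGFA. Of 19 compared, 1 was lower and 0 higher, close to the 4.79% of all genes lower, with a median of −0.07. EGLN3, an oxygen sensor and target of hypoxia-inducible factor, was at 3.44 and 2.13 TPM (−0.67). It was no longer called with 1 TPM added (−0.51) or with the abundance trend removed (−0.54), and was not compared at a minimum of 5 TPM. HIF1A was at 125 and 118 TPM (−0.08), and the glycolytic targets PGK1 and LDHA at 279 and 251 TPM (−0.15) and at 276 and 245 TPM (−0.17). ARNT, the partner of hypoxia-inducible factors, was at 191 and 180 TPM (−0.08). PFKFB4, a regulator of glycolysis, was under the minimum mean of 1 TPM and not compared, at 0.57 TPM uninjected and 1.08 TPM injected.

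Markers of other cell types were read beside the shares of all genes, 2.23% higher and 4.79% lower, and with lists this short 1 or 2 calls say little. Cartilage markers had a median of 0.19, with 1 of 11 higher, MATN3 (0.75; 0.57 and no longer called with 1 TPM added, and not compared at a minimum of 5 TPM), and COL2A1, COL9A1 and COL9A3 as the most abundant (0.19, 0.43 and 0.39). Skeletal muscle markers had a median of 0.18, with 2 of 11 higher, MYF5 (1.11) and MYLPF (0.66), while ACTC1 and MYL1 were at 0.20 and 0.09. Epidermis markers had a median of −0.24, with 1 of 9 lower, ESRP1 (−0.72), and with KRT14, EPCAM and CDH1 at −0.37, −0.36 and −0.11. Limb mesenchyme markers had 0 calls among 9 and a median of −0.19, with COL1A2, COL1A1 and DCN at −0.27, −0.39 and 0.03. Macrophage markers had 0 calls among 13 and a median of 0.00, with CD74, CSF1R and CTSS at −0.09, 0.00 and −0.18. From the uninjected to the injected wing the summed level went from 2478 to 2959 TPM for cartilage, from 4696 to 5490 TPM for muscle, from 443 to 371 TPM for epidermis, from 12472 to 10819 TPM for mesenchyme and from 276 to 265 TPM for macrophages. The part of these shifts in the ratios of VEGFA, ANGPT2 and the venous and lymphatic genes was not tested.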

How the data were processed

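Messenger RNA of 1 injected and 1 uninjected wing was compared. The authors deposited TPM, scaled to an equal sum in each library. HISAT2 2.2.1, StringTie 2.1.7 and the build GRCg6a come from the submitters' processing notes; settings, strandedness and annotation release are not given in those sources. A table with 2 further columns was not used, since their names match neither sample, so depth is unknown.

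Of 24356 rows, 1309 short RNAs were left out. A gene was compared where its mean reached 1 TPM and neither wing was at 0. The 10 genes and 19 lists (254 entries, 213 with a row) were chosen with earlier results of these data known. Entries were matched by symbol or by a RefSeq synonym (assembly GRCg7b, names alone); 3 doubtful joins were left out. Named in the text are the 10 genes, the rest of their families, and in each list the genes past 1.5-fold and the 3 most abundant; other list genes were named after their values were seen. No genome or sequence table was used, so coordinates and sequences are not given. The ratios and scalings were tested on simulated data. Alternatives were 3 scalings, pseudocounts of 1 and 0.01 TPM, no minimum or 5 TPM, rules of 2-fold and of 0.32 on the log2 scale, and subtraction of a running median over 201 genes ordered by abundance. Python 3.11.15, pandas 2.3.3, NumPy 2.4.6 and matplotlib 3.10.9 were used.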

Additional observations from a re-analysis of the deposited data

How the results depend on the processing

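The count of 0 among the 10 genes past 1.5-fold was the same under all 3 scalings, both other pseudocounts, both other minimums, the 2-fold rule and removal of the abundance trend; SOX17 was not compared at a minimum of 5 TPM. Under the looser rule of 0.32 on the log2 scale the count was 1, ANGPT2, against 6.63% of all genes higher. SOX17, at 0.317, lay just under that limit of 0.322, and above it under 3 other scalings, with 0.01 TPM added and with the trend removed. Over all settings ANGPT2 lay between 0.33 and 0.38, VEGFA between 0.22 and 0.29 and SOX17 between 0.20 and 0.40. The scalings shifted all ratios by 0.03 to 0.05. The counts of all genes higher and lower were 186 and 432 with 1 TPM added, 831 and 1298 with no minimum, 122 and 292 at a minimum of 5 TPM, 70 and 207 beyond 2-fold, and 924 and 1800 under the looser rule. They were 383 and 581, 366 and 595, and 386 and 580 when scaled by the median of ratios, the upper quartile and the trimmed mean, and 435 and 524 with the trend removed. Of 191 list genes compared outside the 10, 3 were higher and 7 lower as reported, against 2.23% and 4.79% of all genes. There were 3 lower at a minimum of 5 TPM and 5 higher with the trend removed, where LYVE1 (0.59) and NT5E (0.59) passed 1.5-fold. The counts were 1 higher and 2 lower beyond 2-fold, against 0.502% and 1.48% of all genes. Under the looser rule they were 14 and 21, against 6.63% and 12.9%. The differences between wings in the ratios within pairs stayed within 1.5-fold with either other pseudocount. No paired analysis was possible because each group held 1 library. Fewer genes pass a stricter fold or minimum by construction; the cause of the other shifts was not tested. With 1 library a wing and no depth, neither a counting error nor a spread between animals could be set beside any ratio.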
